A study of Mus musculus with 6 samples.

Results

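The INK4 and CIP/KIP genes encode the inhibitors of the cyclin-dependent kinases, and the binding of CDK6 to chromatin was described here at these 7 genes, of 21938 protein-coding genes in the annotation. The 4 INK4 genes are Cdkn2a, Cdkn2b, Cdkn2c and Cdkn2d, and the 3 CIP/KIP genes are Cdkn1a, Cdkn1b and Cdkn1c. They were chosen as gene families, and peaks were assigned to them by position alone. Promoters are windows around each start of the gene annotated in GENCODE M21, with 2000 bp on the upstream and 200 bp on the downstream side (mouse genome GRCm38, mm10), and a locus is the gene body with 20 kb to each side.

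CDK6 was precipitated through an HA tag in murine BCR::ABL1+ pre/pro-B cell lines. The lines came from bone marrow of C57BL/6 mice with the Cdk6-/- genotype, transformed with a retroviral vector for the BCR-ABL p185 oncogene, so that all groups lacked endogenous CDK6 and carried the oncogene. HA-tagged CDK6-WT, or the kinase-inactive mutant HA-tagged CDK6-K43M, was overexpressed from a retroviral plasmid, and 2 libraries per variant were sequenced after fixation with DSG and formaldehyde. The comparison of the variants asks whether kinase activity alters where CDK6 sits on chromatin. The tagged protein was expressed from the vector, and its level was not compared between the variants here. Whether replicates with different numbers came from separate lines or cultures is not given, so that p-values measure the spread between these libraries, which may be technical. The 2 input libraries of the series were not analysed here, and no anti-HA library from cells without the tag was used.

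D-type cyclins activate CDK4 and CDK6, which phosphorylate the retinoblastoma protein and release E2F factors at the transition from G1 to S phase. INK4 proteins bind CDK4 and CDK6 themselves and keep them from cyclin D, whereas CIP/KIP proteins bind cyclin-kinase complexes and also restrain CDK2. Cdkn2a and Cdkn2b lie next to each other and are known as tumor suppressors that are often lost in BCR::ABL1+ lymphoid leukemia. CDK6 has no DNA-binding domain, so that a peak marks chromatin that is crosslinked to the tagged protein directly or through its partners.

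The stretches of promoter and intron that the results turn on were read from the GRCm38 sequence and are printed 5′ to 3′ on the strand of the gene. The promoter stretches are the 200 bases before an annotated start and carry, or lie beside, the summits described further on. The intron stretches are centred on the summit of the strongest peak and show the sequence under binding away from a start. Capitals mark exact matches, on either strand, to the NRF-1 consensus and to ETS CCGGAAGT, SP1 GGGCGG, NFY CCAAT, RUNX TGTGGT, STAT TTCNNNGAA, FOXO GTAAACA, E-box CACGTG and E2F TTTCCCGC or TTTGGCGC, and a match on the opposite strand reads as the reverse complement.
Cdkn2a Arf start, chr4:89294654-89294853, minus strand: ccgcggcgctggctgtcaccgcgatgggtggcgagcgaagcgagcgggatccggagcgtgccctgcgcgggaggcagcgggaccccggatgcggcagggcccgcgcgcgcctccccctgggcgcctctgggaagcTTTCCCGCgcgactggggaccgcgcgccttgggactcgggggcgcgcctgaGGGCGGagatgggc
Cdkn2a Ink4a start, chr4:89282193-89282392, minus strand: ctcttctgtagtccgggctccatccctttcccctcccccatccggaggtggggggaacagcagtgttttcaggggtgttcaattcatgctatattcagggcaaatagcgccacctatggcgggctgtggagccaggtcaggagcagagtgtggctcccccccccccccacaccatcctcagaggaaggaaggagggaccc
Cdkn2b start, chr4:89311040-89311239, minus strand: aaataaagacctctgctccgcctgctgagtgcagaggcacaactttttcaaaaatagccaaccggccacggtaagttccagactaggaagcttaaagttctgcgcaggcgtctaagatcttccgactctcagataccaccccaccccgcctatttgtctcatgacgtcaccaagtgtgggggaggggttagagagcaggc
Cdkn2d start, chr9:21291408-21291607, minus strand: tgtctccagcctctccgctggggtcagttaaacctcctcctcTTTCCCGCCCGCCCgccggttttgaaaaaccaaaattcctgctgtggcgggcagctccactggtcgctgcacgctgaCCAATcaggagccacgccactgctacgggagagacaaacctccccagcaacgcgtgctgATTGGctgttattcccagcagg
Cdkn1b start, chr6:134920201-134920400, plus strand: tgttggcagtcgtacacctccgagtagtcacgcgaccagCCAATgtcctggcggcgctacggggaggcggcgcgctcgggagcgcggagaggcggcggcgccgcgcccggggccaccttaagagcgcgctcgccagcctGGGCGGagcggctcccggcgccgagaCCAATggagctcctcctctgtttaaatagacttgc
Cdkn1a intron summit, chr17:29095505-29095705, plus strand: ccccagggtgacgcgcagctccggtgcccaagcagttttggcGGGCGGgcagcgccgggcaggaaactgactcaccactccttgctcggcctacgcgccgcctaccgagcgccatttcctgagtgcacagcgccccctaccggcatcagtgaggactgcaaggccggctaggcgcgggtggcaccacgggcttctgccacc
Cdkn2a intron summit, chr4:89288099-89288299, minus strand: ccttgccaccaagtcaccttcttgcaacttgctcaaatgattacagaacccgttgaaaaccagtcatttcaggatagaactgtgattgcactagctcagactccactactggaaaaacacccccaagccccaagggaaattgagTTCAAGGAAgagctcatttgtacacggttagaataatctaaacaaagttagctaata
The Arf stretch held an E2F match 65 bp before the start and an SP1 match 14 bp before it, with 31 CpG dinucleotides in 200 bases. The Ink4a stretch, which belongs to the same gene, held 4 CpG and none of the motifs, and the Cdkn2b stretch also held none. In Cdkn2d, an E2F match 158 bp before the start ran into an overlapping pair of SP1 matches, and NFY matches lay 81 bp and 22 bp before the start. Cdkn1b had NFY matches 161 bp and 35 bp before the start on both sides of an SP1 match. Among the same 200 bp windows of 54365 protein-coding transcript starts, 37.9% held an SP1 match, 28.5% an NFY match, 5.44% a STAT match and 1.29% an E2F match. A match is a run of letters and was not tested as a binding site.

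The 4 peak lists held 35189 (replicate 1) and 34729 (replicate 2) peaks with CDK6-WT, and 39797 and 37304 with CDK6-K43M. Their peaks had a median of 20, 18, 23 and 15 reads at the summit, solved from its fold enrichment and −log10 p. Because the lists differ in length and in reads at the summit, a peak is ranked within its own list by the percentile of its −log10 q. A percentile of 100 is the strongest. Over the 7310 genes with a promoter peak in all 4 lists, the median percentile of the strongest promoter peak with CDK6-WT was 84.3 in replicate 1 and 63.4 in replicate 2, and with CDK6-K43M it was 86.1 and 62.8, so that promoters ranked higher in both replicate 1 lists. Of 8 pre/pro-B cell marker genes, 7 had a promoter region bound by both variants, and Rag1, which encodes a subunit of the V(D)J recombinase, had promoter peaks in the replicate 2 lists only. Of 4 T cell marker genes none had a promoter peak in any list. Of 4 myeloid marker genes 1 had a region bound by both, Lyz2, which encodes lysozyme, with peaks in 3 lists at percentiles of 36.3, 12.5 and 16.2. Neither of 2 genes of other tissues, Alb and Myod1, had a peak. Of all protein-coding genes, 41.5% had a promoter region bound by both variants and 48.0% had no promoter peak in any list.

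CDK6 occupied the promoters of most inhibitor genes. Promoter peaks were found at 6 of 7 genes in the CDK6-WT replicate 1 list, at 5 in replicate 2, at 6 in the CDK6-K43M replicate 1 list and at 5 in replicate 2. Of all protein-coding genes, 47.2%, 40.3%, 48.7% and 39.5% had a promoter peak in these lists. The same 5 genes, Cdkn2a, Cdkn2b, Cdkn2c, Cdkn2d and Cdkn1b, carried one in all 4 lists, against 33.3% of all genes. Cdkn1a had one in the replicate 1 libraries of both variants but not in those of replicate 2, a pattern of 5.70% of genes. Cdkn1c had none in any list, as did 48.0% of genes. All 4 INK4 genes were therefore among the genes with a peak in every list, and the 3 CIP/KIP genes each showed a different pattern. This split depended on the threshold. With a minimum −log10 q of 10, only Cdkn2a, Cdkn2c and Cdkn1b had a promoter peak in every list. With the top 10000 peaks per list only Cdkn2a and Cdkn1b did. Of protein-coding starts with an observed to expected CpG ratio below 0.25, 88.0% had no peak in any list. The share was 31.1% at ratios from 0.5 to 0.75 and 16.1% from 0.75 to 1. The starts of the 5 genes with a peak in all 4 lists had ratios from 0.537 to 0.981. Ratios inside this range were also found at Cdkn1a-201 (0.622), Cdkn1a-205 (0.632) and the first start of Cdkn1c (0.882). The Cdkn1a-202 and Cdkn1a-203 starts had 0.126 and 0.273.

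**Figure D1:**
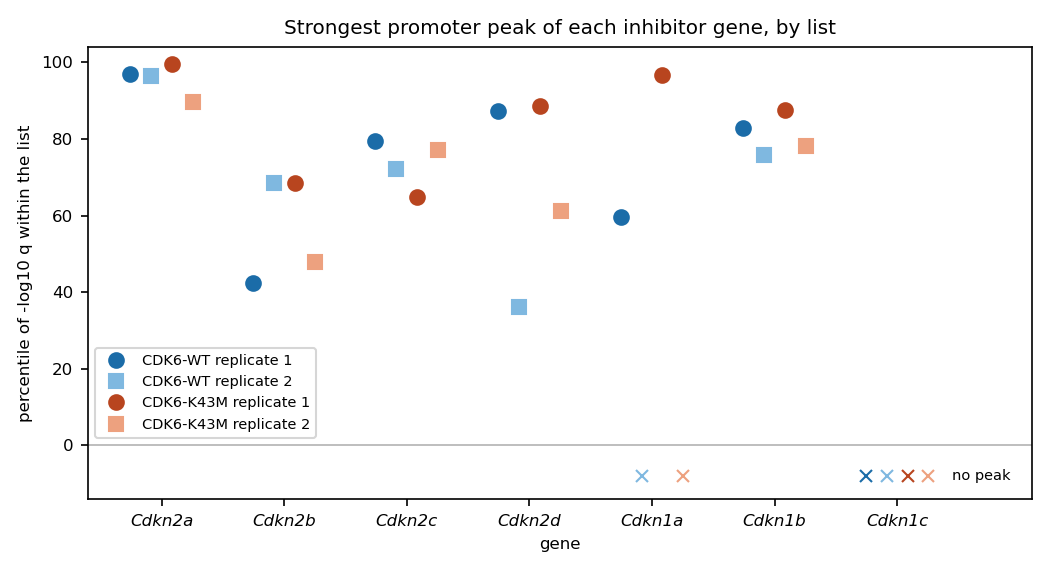
Percentile of −log10 q of the strongest promoter peak (vertical axis, rank within the library's own list) for each inhibitor gene, with circles for replicate 1 and squares for replicate 2 libraries, blue for CDK6-WT and orange for CDK6-K43M. Crosses mark lists with no promoter peak. Cdkn2a reached 89.5 to 99.4 in the 4 lists, Cdkn2d ranged from 36.3 to 88.6, and the CDK6-K43M replicate 1 value of Cdkn1a comes from an intronic peak whose end reaches the promoter window of a late start.

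Cdkn2a (ENSMUSG00000044303.6) encodes p16Ink4a, the INK4 inhibitor of CDK4 and CDK6, and from an earlier start p19Arf, which stabilizes p53 by binding MDM2. The start of the Arf transcript (Cdkn2a-202, chromosome 4, position 89294653, minus strand) carried the strongest promoter peak of the 7 genes in each of the 4 lists. Its percentile was 97.1 and 96.4 with CDK6-WT and 99.4 and 89.5 with CDK6-K43M, in the order of the replicates as in all values that follow. The summits held 50 and 41 reads with CDK6-WT and 77 and 28 reads with CDK6-K43M, and fold enrichment over the local background was 16.5, 13.7, 21.9 and 9.73. The summits lay 114, 99, 62 and 74 bp before the start, inside the stretch printed above and within 52 bp of each other.

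At the Ink4a start (Cdkn2a-201, position 89282192), which lies inside the intron of the Arf transcript, a separate region of 772 bp was bound in all 4 lists. Its percentile was 84.3 and 74.7 with CDK6-WT and 78.8 and 48.7 with CDK6-K43M, below the Arf start in every list. Summits held 34, 23, 35 and 15 reads and lay between 226 and 119 bp before the start. Another region with peaks in all 4 lists (89287937 to 89288518) lay in the intron between both starts, with summits 6373 to 6500 bp after the Arf start. There the order of the libraries was the opposite, with percentiles of 55.2 and 70.6 in the replicate 1 lists and 92.4 and 95.9 in the replicate 2 lists. It carried 21 and 34 reads with CDK6-WT and 28 and 36 reads with CDK6-K43M, and the STAT match in its printed stretch starts 44 bp past the summit. In both replicate 2 lists it ranked above the Ink4a start, and in the CDK6-K43M replicate 2 list also above the Arf start.

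Cdkn2b (ENSMUSG00000073802.5) encodes p15Ink4b, an INK4 inhibitor that responds to TGF-β signaling. Its single start (position 89311039, minus strand) had a region of 770 bp in all 4 lists, with percentiles of 42.5 and 68.4 with CDK6-WT and 68.5 and 47.8 with CDK6-K43M. These were the lowest mean ranks among the 5 promoters found in every list. The summits held 16, 25, 26 and 18 reads. They lay on both sides of the start, from 205 bp before to 134 bp after it.

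Cdkn2c (ENSMUSG00000028551.14) encodes p18Ink4c, an INK4 inhibitor with a known role in B lymphocytes. A merged region of 2590 bp covered both of its starts (positions 109667189 and 109665372 on chromosome 4, minus strand) and held 2 or 3 peaks per list. The strongest of these had a percentile of 79.4 and 72.2 with CDK6-WT and of 64.8 and 77.0 with CDK6-K43M, with 30, 27, 28 and 21 reads. Its position differed with the replicate number. In the replicate 1 lists the summit lay 376 and 356 bp after the first start, and in the replicate 2 lists it lay 1473 and 1770 bp after it, closer to the second start.

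Cdkn2d (ENSMUSG00000096472.2) encodes p19Ink4d. The region over its clustered starts (chromosome 9, first start at 21291407, minus strand) had percentiles of 87.2 and 36.3 with CDK6-WT and 88.6 and 61.2 with CDK6-K43M. Both replicate 1 values lay above both replicate 2 values. The summits held 32 and 14 reads with CDK6-WT and 44 and 17 reads with CDK6-K43M. With CDK6-WT they lay 230 bp after and 212 bp before the first start, and with CDK6-K43M 115 bp after and 89 bp before it. Only the CDK6-K43M replicate 2 summit fell inside the stretch printed above. At 14 reads the 95% Poisson interval ran from 7.65 to 23.5 and at 44 reads from 32.0 to 59.1, which covers counting error only. The other region of the locus (21287525 to 21288772) lay over the 3′ end of Cdkn2d and the promoter of the adjacent Kri1, with percentiles of 94.3, 76.7, 94.4 and 58.4.

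Among the CIP/KIP genes, Cdkn1b (ENSMUSG00000003031.14) encodes p27Kip1, which restrains CDK2 and whose loss sensitizes to tumors. Its promoter was occupied in all 4 lists with percentiles of 82.8 and 75.9 with CDK6-WT and 87.5 and 78.1 with CDK6-K43M. The 4 values spanned less than those at Cdkn2b, Cdkn2c or Cdkn2d. Summits held 32, 22, 42 and 20 reads at fold enrichments of 10.7, 8.06, 11.7 and 8.05. They lay 125, 114, 122 and 66 bp before the first start (chromosome 6, position 134920401, plus strand), in the stretch with the NFY and SP1 matches.

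Cdkn1a (ENSMUSG00000023067.14) encodes p21Cip1, a target of p53. The gene has 5 annotated starts in 3 places. The first pair (positions 29090976 and 29090979 on chromosome 17, plus strand) had no promoter peak in any list. At the starts of Cdkn1a-201 and Cdkn1a-205 (29093769 and 29093781) replicate 1 of each variant had a peak, with percentiles of 59.5 for CDK6-WT and 58.7 for CDK6-K43M and with 20 and 23 reads, whereas replicate 2 had none.

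The main peak of Cdkn1a lay in the intron after these starts (29094973 to 29095981). It was present in all 4 lists, with percentiles of 88.7 and 78.6 with CDK6-WT and 96.8 and 87.5 with CDK6-K43M, 34, 24, 55 and 24 reads, and summits 1785 to 1836 bp after the start of Cdkn1a-201. The 4 summits fell within 51 bp of each other, on the SP1-bearing stretch printed above. The CDK6-K43M replicate 1 peak extended into the promoter window of the late start of Cdkn1a-203 (position 29097900). By this overlap the region counts as a promoter region, and without that library, or with the summit required to lie in the window, it does not. The promoter window of an antisense transcript model that still awaits experimental evidence (AC167363.2) holds the same peaks. The model itself (29093416 to 29094461) does not overlap this region.

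A further region in all 4 lists lay downstream of Cdkn1a (29111342 to 29112111). It had percentiles of 92.2 and 89.3 with CDK6-WT and 91.3 and 87.0 with CDK6-K43M, the narrowest range of the regions described so far, and summits 18158 to 18216 bp after the start of Cdkn1a-201. No promoter window overlaps it. On the upstream side, 3 regions in all 4 lists lay at promoters of Trp53cor1, which encodes the p53-induced lincRNA-p21. The one nearest to Cdkn1a had percentiles of 74.4 and 87.5 with CDK6-WT and 33.2 and 76.5 with CDK6-K43M.

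Cdkn1c (ENSMUSG00000037664.13) encodes p57Kip2, an imprinted gene expressed from the maternal allele. No list had a peak in its locus, as was the case for 26.3% of genes. The nearest peaks lay 87267 and 71401 bp from the gene with CDK6-WT and 45792 and 87231 bp with CDK6-K43M, the closest with 11 reads. Its first start on chromosome 7 (position 143461050, minus strand) lies in CpG-rich sequence, with an observed to expected CpG ratio of 0.882 over 500 bp to each side, the 90.1st percentile of protein-coding starts. Of 13456 protein-coding starts with a ratio from 0.75 to 1, 16.1% had no peak in any list. The lists hold only called peaks, so that binding below the threshold of the peak caller was not detectable. Chromatin accessibility and expression of Cdkn1c in these cells were not analysed here.

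**Figure D2:**
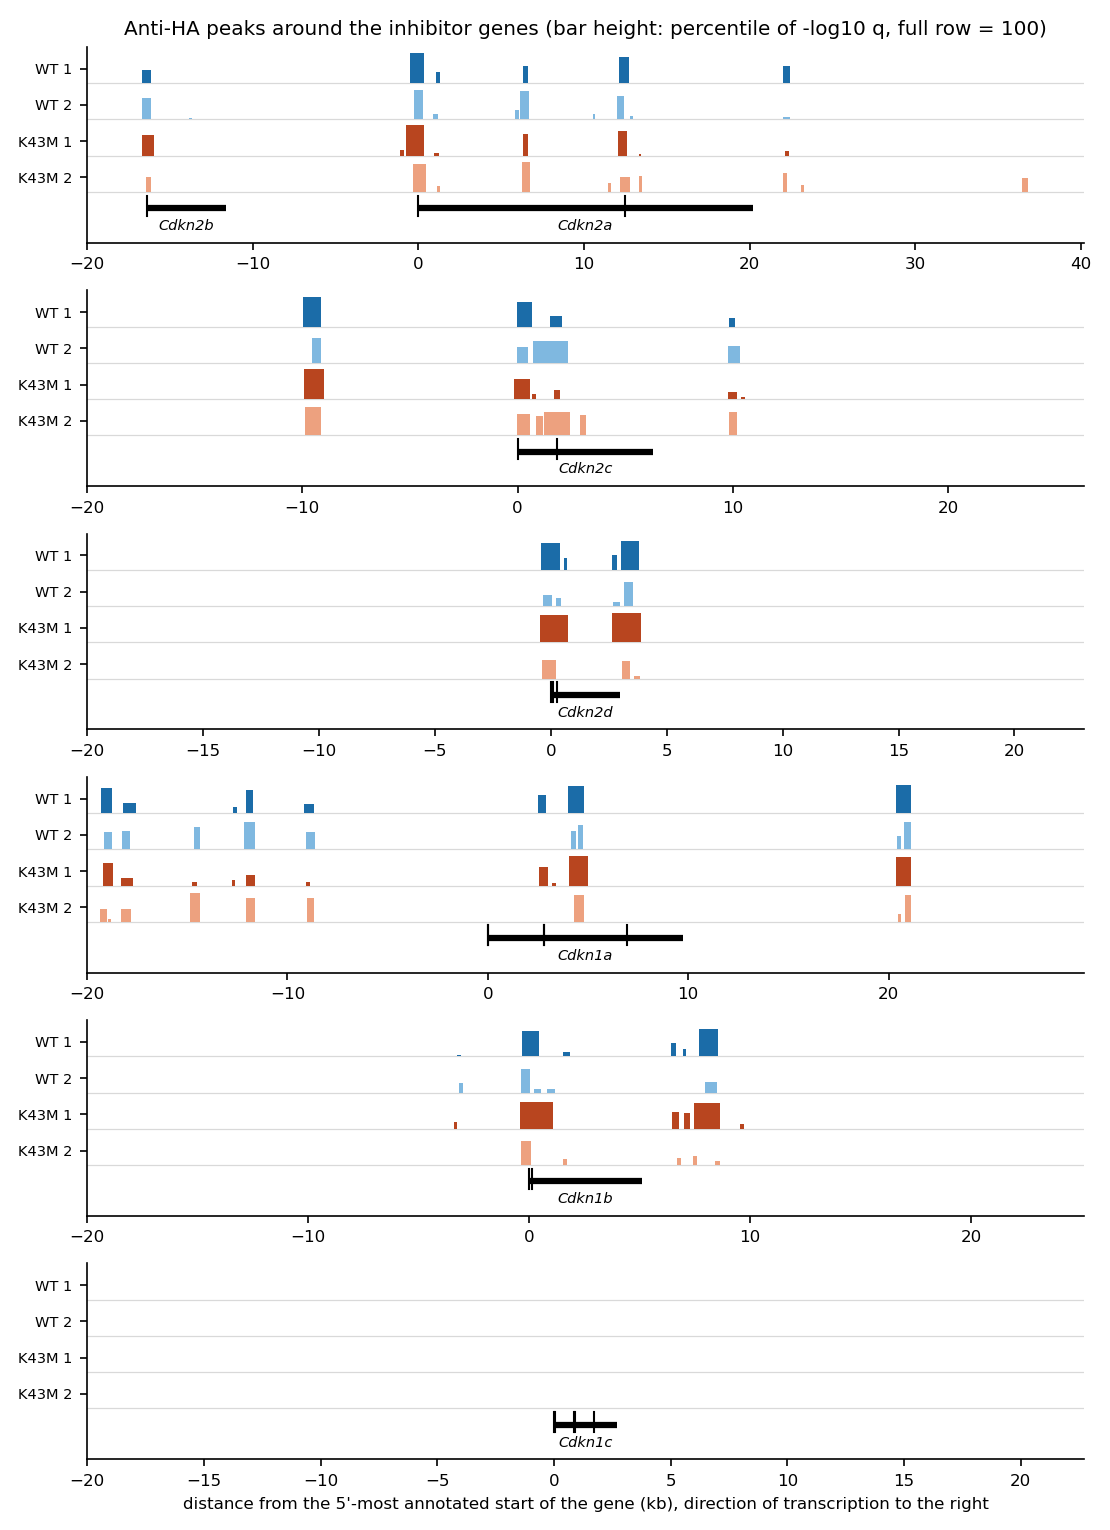
Peaks of the 4 lists (rows: CDK6-WT replicates 1 and 2, labelled WT, and CDK6-K43M replicates 1 and 2, labelled K43M) along each locus, by distance in kb from the 5′-most annotated start, with transcription to the right. Bars span each peak and their height is the percentile of −log10 q, where a full row is 100. Black bars mark the inhibitor genes and ticks their starts. The Arf start, the intron and the Ink4a start of Cdkn2a, the Cdkn2b start and the Cdkn1a intron carry peaks in every row, and the Cdkn1c panel holds none.

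The variants did not differ in how many of the 7 promoters they occupied. The count was 5.5 ± 0.707 for both (SD, n = 2 libraries each), with a difference of 0 within replicate 1 and within replicate 2 (exact two-sided permutation test, p = 1). An exact test of 2 libraries against 2 cannot give a p below 0.333. With promoter regions merged over the lists and called bound by both when at least 3 of 4 lists have a peak, 6 of 7 genes had such a promoter region, against 41.5% of all genes. Cdkn1a is the sixth only through the CDK6-K43M replicate 1 peak that reaches the window of its late start, and without that library the count was 5. No inhibitor promoter held a region unique to a variant, meaning one with peaks in both lists of a variant and neither of the other. Such regions occurred at 0.223% of promoters for CDK6-WT and at 0.716% for CDK6-K43M.

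Differences in rank between the variants were within the spread of the replicates at all 5 promoters with a peak in every list. CDK6-K43M minus CDK6-WT was 13.2 percentile points at Cdkn2d, from 61.7 ± 36.0 to 74.9 ± 19.3 (SD, n = 2; exact permutation p = 0.667). Within replicate 1 this difference was 1.34 and within replicate 2 it was 24.96. At Cdkn1b it was 3.49 points, from 79.3 ± 4.89 to 82.8 ± 6.67 (exact permutation p = 0.667), with 4.75 and 2.23 within the replicate numbers. At Cdkn2b the mean difference of 2.67 points (exact permutation p = 0.667) combined opposite values of 26.0 in replicate 1 and -20.7 in replicate 2. At Cdkn2c the difference was -4.94 points (exact permutation p = 0.667), with -14.7 and 4.77 within the replicate numbers. At Cdkn2a it was -2.26 points (exact permutation p = 1), with 2.39 and -6.91. After Benjamini-Hochberg adjustment over the 7310 genes the exact p was 1 for each.

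At none of the 5 did both values of a variant lie above both of the other. Over the 7310 genes this was seen for CDK6-K43M above CDK6-WT in 6.77% and for CDK6-WT above CDK6-K43M in 3.61%. Both replicate 1 values lay above both replicate 2 values at Cdkn2a, Cdkn2d and Cdkn1b, in 3 of 5 genes, against 69.4% of all genes. The opposite order, seen in 10.1% of all genes, was found at none of the 5.

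The 7 loci together held 41 merged regions, of which 22 were bound by both variants and 19 had a peak in all 4 lists. Over all 56748 regions of the genome these shares were 40.5% and 28.9%. A further 13 regions came from a single list, a class that made up 32.6% of all regions. In the loci, 3 regions were found in the replicate 1 lists only, 1 in the replicate 2 lists only and 1 in 1 list of each variant with different replicate numbers, against 13.0%, 11.0% and 1.32% of all regions. No region was unique to CDK6-WT, a class that held 0.359% of all regions. The only variant-specific region was unique to CDK6-K43M, a class of 1.26%, and lay in the Cdkn2a intron 943 bp after the Ink4a start (89281181 to 89281358). It was weak, with 12 and 14 reads and percentiles of 7.02 and 50.3. With a minimum −log10 q of 5 no variant-specific region was left in the loci. Without CDK6-K43M replicate 1 there were 7 unique to CDK6-K43M and 2 unique to CDK6-WT. In that setting a single list stands for CDK6-K43M, so that the class is wider than the one defined above.

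By position, 11 of the 41 regions lay at promoters of the inhibitor genes, 12 in their gene bodies, 10 at promoters of other genes and 8 elsewhere in the flanks. Of the promoter regions 7 were bound by both variants, and of the gene body regions 3 were. In the gene bodies 6 of 12 regions came from 1 list. Shares of these classes by place were not computed over all regions of the genome, so that the contrast is not a trait shown for these loci.

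The loci of Cdkn2a and Cdkn1a held the most merged regions per 10 kb. The Cdkn2a locus held 15 regions, or 2.49 per 10 kb, which is the 98.8th percentile of all protein-coding genes. The Cdkn1a locus held 10, or 2.01 per 10 kb (96.8th percentile), and the Cdkn1b locus 8, or 1.77 per 10 kb (95.0th percentile). Of the 15 regions at Cdkn2a, 6 were bound by both variants and 7 came from a single list, whereas 7 of the 10 at Cdkn1a were bound by both, so that by regions bound by both Cdkn1a came first. Cdkn2b followed with 7 regions (1.56 per 10 kb, 92.8th percentile), all of which also lie in the Cdkn2a locus because the genes are neighbors, and Cdkn2c with 6 (1.296 per 10 kb, 88.4th percentile). Cdkn2d had 2 regions, or 0.465 per 10 kb, close to the median gene with 0.374. At least 1 region was found in the loci of 73.7% of genes, and at least 1 bound by both in 60.6%.

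**Figure D3:**
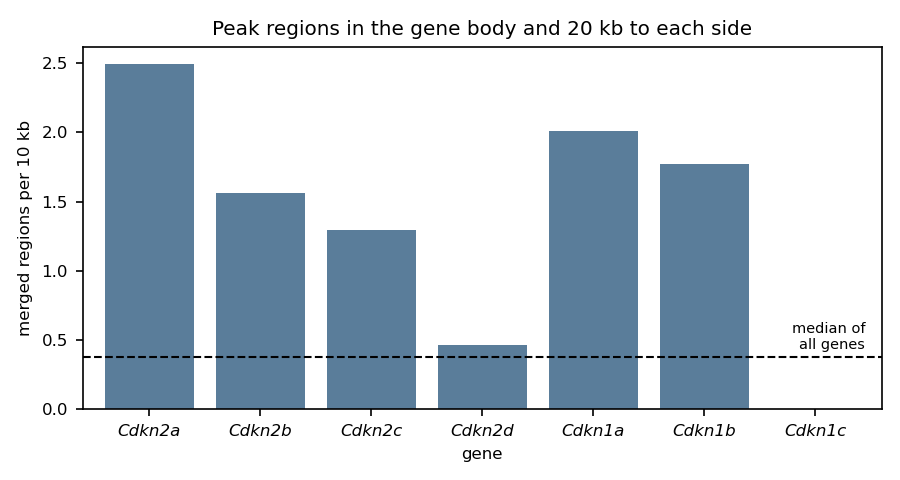
Merged peak regions per 10 kb of the gene body and 20 kb to each side, by gene. The dashed line is the median of all protein-coding genes, 0.374 per 10 kb, which Cdkn2a exceeds with 2.49 and Cdkn1a with 2.01, while Cdkn2d is near it with 0.465 and Cdkn1c is at 0.

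The 19 regions with a peak in all 4 lists were ordered by replicate number more than by variant. In 10 of them both replicate 1 percentiles lay above both replicate 2 percentiles, against 41.1% of such regions in the genome, and in 5 the order was the opposite, against 29.7%. In the other 4 the replicate numbers overlapped. In none did the variants separate, whereas CDK6-K43M lay above CDK6-WT in 9.80% and below it in 5.08% of all such regions. Most of the regions higher in replicate 1 were at promoters, including the Arf and Ink4a starts and those of Cdkn2d and Cdkn1b. The 5 regions higher in replicate 2 included the Cdkn2a intron, 2 of the 3 Trp53cor1 regions and a region beside Cdkn2c. The fifth lay in the upstream flank of Cdkn1a (29081796 to 29082331), whereas the downstream region described above was higher in replicate 1. None of them lay at an inhibitor start. The region beside Cdkn2c reached the promoter window of 9630013D21Rik only with its CDK6-K43M replicate 1 peak.

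**Figure D4:**
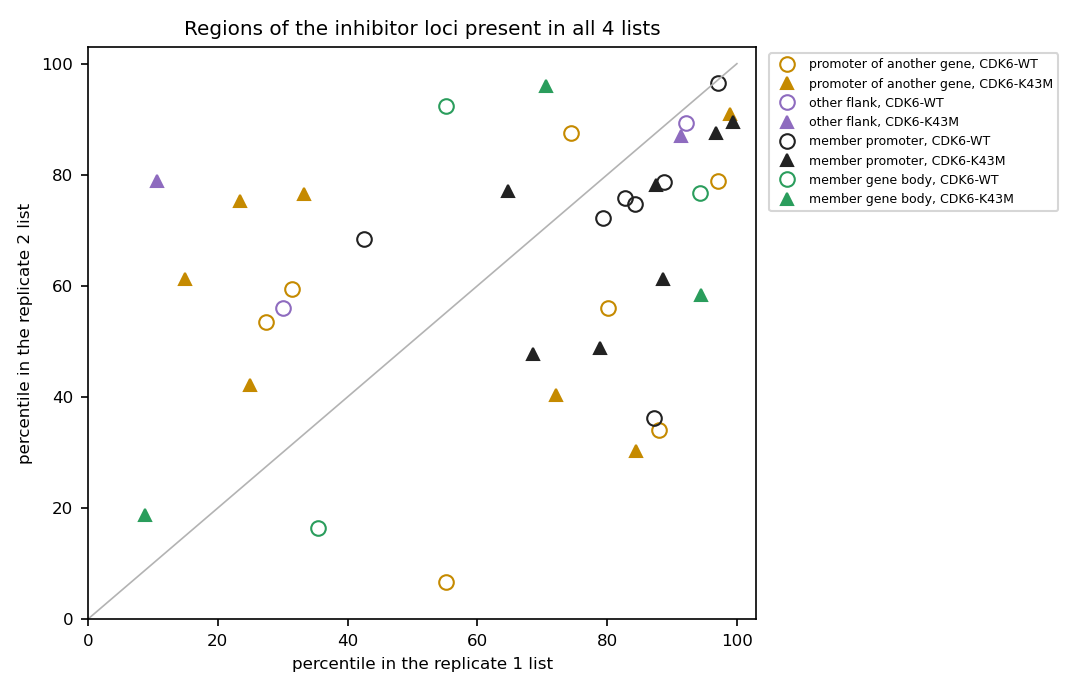
Percentile of −log10 q in the replicate 2 list against that in the replicate 1 list for the 19 regions present in all 4 lists, with open circles for CDK6-WT, filled triangles for CDK6-K43M and colors for the place of the region. The line marks equal ranks. In 10 regions both replicate 1 values were the higher ones, in 5 both replicate 2 values were, and the variants do not separate in any region.

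Other genes share the loci. The promoter of Faf1, which encodes a FAS-associated factor and starts divergently from Cdkn2c, had percentiles of 97.2, 78.8, 98.9 and 90.9 and was the strongest neighboring promoter by mean percentile. The promoter of Lockd, a long noncoding RNA downstream of Cdkn1b, had 88.0 and 84.5 in the replicate 1 lists and 34.0 and 30.2 in the replicate 2 lists. The promoter of the lincRNA Gm12606 behind Cdkn2a had 55.2 and 6.72 with CDK6-WT and 15.01 and 61.2 with CDK6-K43M. The promoter of Gm44238, an antisense lincRNA at the Lockd start, was reached by a peak of 1 list only.

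Promoters of genes that the inhibitors act on were also occupied. Of 19 genes for D-, E-, A- and B-type cyclins, their kinases, the retinoblastoma family and E2F factors, 18 had a promoter region bound by both variants, against 41.5% of all protein-coding genes, and Ccnb1, which encodes cyclin B1, had no such region. Ccnb1 had promoter peaks in the replicate 1 lists only, and so did E2f2, whose merged region was bound by both although the peaks of replicate 2 did not reach the promoter window. Of 14 genes for regulators of the inhibitors, among them Trp53, Bmi1, Myc and Foxo3, 13 had one, and Ikzf1, which encodes the lymphoid factor Ikaros, had a peak in 1 list. For genes with a promoter peak in all 4 lists, the median of the mean percentile was 61.9 over 16 genes of the first group and 81.2 over 12 of the second, beside 71.5 over all genes. These lists were chosen with earlier results known, and their shares describe these genes without a test.

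Around the 22 summits of regions bound by both, taken as the strongest peak with 100 bp to each side, 16 windows held at least 1 of the motifs, against 64.1% of 22975 such windows in the genome. SP1 matches were found in 9 (26.1% of all), NFY in 3 (19.7%), RUNX in 3 (20.7%) and STAT in 2 (7.59%). E2F matches occurred in 2 windows, those of the Arf start and of Faf1 (1.33% of all windows), and E-box matches in 2 (6.48%). A FOXO match was found in 1 window upstream of Cdkn1b (2.45%), whereas NRF-1 and ETS matches occurred in none (0.918% and 3.86%).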

How the data were processed

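ChIP-seq against the HA tag was analysed in 4 libraries, 2 per CDK6 variant, grouped by the labels. According to the study's methods and the submitters' processing notes, the authors used Trimmomatic 0.36 for trimming, BWA 0.7.15 for alignment to mm10, and bedtools and SAMtools 1.3.1 to discard blacklisted regions, multimappers and reads of low mapping quality, and called peaks per library with MACS2 2.1.0 defaults. The deposited lists give for each peak a fold enrichment, which is a ratio, its p-value and q-value on the −log10 scale, a score derived from the q-value, and the summit offset. All listed peaks pass a q-value of 0.05. The lists hold no read totals.

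Reads at the summit were recovered by solving fold enrichment and −log10 p together. Whole reads were found for 100% of peaks within 0.001 of the −log10 p, and the recovery was tested on simulated lists. Percentiles of −log10 q were computed within each list, with ties at their average rank. Overlapping peaks (1 bp or more) of the lists were joined, and regions were classified as in the study's methods, but on merged intervals in place of DiffBind. Positions are on GRCm38 with GENCODE M21, and sequences were read from the RefSeq copy of that assembly. Motifs were searched on both strands, and regions off the assembled chromosomes were left out of motif searches. Variants were compared by exact permutation, two-sided, with 6 ways to assign 4 libraries. The genes named are the 7 inhibitors, other genes whose promoters hold a region of their loci, and, for the listed groups, the 5 or fewer that depart from the rest, beside a few named as examples of a list. Members, gene lists and tests were chosen with earlier results of these data known. Alternatives were stricter or shorter lists, other windows, flanks and merging, ranking by fold enrichment, a replicate block and leaving out each library. Computations ran in Python 3.11.15 (pandas 2.3.3, numpy 2.4.6, pysam 0.24.0, scipy 1.17.1).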

Additional observations from a re-analysis of the deposited data

How the results depend on the processing

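Of 123 alternative values over 14 results, 93 were classed as the same, 21 moved further and 9 changed sign. Rank differences were classed by their sign, and counts by lying within 1.5 times the reported one. The difference in promoter count was classed by lying within the SD of 0.707 from the reported one. The replicate block leaves each difference unchanged by construction, so that its values could not move. Rank differences that kept their sign still changed in size, as the ranges for single libraries show. The number of regions in the 7 loci was 27 with a minimum −log10 q of 5, 20 with a minimum of 10, 26 when peaks within 500 bp were merged and 71 with flanks of 50000 bp. It ranged from 36 to 43 when 1 library was left out. Promoter peaks in all 4 lists were found at 3 of the 7 genes with a minimum −log10 q of 10 and at 2 with the top 10000 peaks per list, and a promoter region bound by both variants was found at 3 genes under either setting and at 5 to 6 without 1 library. The region unique to CDK6-K43M was lost (0 regions) at a minimum −log10 q of 5 or 10 and when peaks within 500 bp were merged, and without 1 library 2 to 7 regions were unique to CDK6-K43M and 0 to 4 to CDK6-WT, where a single list then stands for the variant. The difference in promoter count between the variants ranged from -0.5 to 0.5 without 1 library. The sign of every rank difference changed on leaving out some single library, which leaves 1 variant with only 1 replicate number. Within the replicate numbers both differences were positive at Cdkn1b (4.75 and 2.23) and at Cdkn2d (1.34 and 24.96). At Cdkn2a, Cdkn2b and Cdkn2c they had opposite signs. Without 1 library the rank difference ranged from -1.23 (without CDK6-K43M replicate 1) to 8.21 at Cdkn1b, and from -7.22 to 2.70 (without CDK6-K43M replicate 2) at Cdkn2a. At Cdkn2b it ranged from -10.3 (without CDK6-WT replicate 1; -7.71 without CDK6-K43M replicate 1) to 15.6, and at Cdkn2c from -11.1 to 1.18 (without CDK6-K43M replicate 1). At Cdkn2d it ranged from -12.3 (without CDK6-WT replicate 2; -0.520 without CDK6-K43M replicate 1) to 38.6. Ranked by fold enrichment, it was -1.31 at Cdkn2b and 0.448 at Cdkn2c. The cause was not tested. The labels number the replicates alike in both variants. With the replicate number as a block the difference in promoter count was 0 (exact sign-flip test, p = 1), and the exact p at the 5 promoters was 0.5 or 1, where 0.5 is the smallest possible, so that the block changed no call. Over 7310 genes the difference of replicate 1 minus replicate 2 correlated between the variants (r = 0.572, across genes, which are not independent). Reads at the summits numbered 10 to 80, and binding under the threshold of the lists was not detectable.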
